A study of Mus musculus with 8 samples.

Results

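The collagen genes of mouse wound skin were taken by symbol from the table of gene counts, as every symbol made of Col, a type number, the letter a and a chain number. This rule found 44 of the 18540 genes of the table. They were sorted by the structure of their proteins into 11 fibrillar, 9 fibril-associated (FACIT), 7 beaded, 8 basement membrane, 1 anchoring and 4 transmembrane collagen genes, with 4 short-chain and other collagens left over. RNA sequencing covered wound skin of 4 mouse samples labelled con (control) and 4 labelled shiyan. The labels name no agent for the shiyan samples. A heat map of the study names its treated samples Z1C2Z, with the same numbers as the labels, and that name is used here, although its text on the sequencing says only ZCZ, a name it gives to both Z1C1Z and Z1C2Z. Z1C2Z is a nanocomposite of zinc peroxide and cerium oxide in a zeolitic imidazolate framework, and the treated wounds of the study received it at 100 μg/kg for 15 days, while control wounds received PBS. All wounds were full-thickness wounds of the back, with a pair on each mouse. The study wounded both C57BL and diabetic db/db mice, and the sources used here do not state the strain, age or sex of the sequenced mice, which samples share a mouse, or whether tissue was pooled. Samples are named by group and by the number in their label, which is 1, 2, 3 or 5 for control and 1, 2, 4 or 5 for Z1C2Z, and values per sample are listed in this order.

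Collagens are triple helices of 3 alpha chains, each chain from a gene of its own or from the same gene, and they are the main proteins of the dermis. In a healing wound fibroblasts lay down type III and type I fibrils, type V starts those fibrils, FACIT collagens coat them, type VI forms beaded microfibrils around cells, and type IV builds the sheets under the epidermis and around vessels. Inside the cell chains are hydroxylated and folded, and outside it propeptides are cut off and fibrils are cross-linked by lysyl oxidases.

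Totals of 28856790 to 38974888 counts per sample were deposited. Levels are given as CPM (counts scaled to a common library size with TMM factors), or as CPM per kb of merged exon where genes are compared with each other. Differences are log2 fold changes of Z1C2Z against control from the quasi-likelihood test of edgeR, and adjusted p are Benjamini-Hochberg values over 15147 genes that passed the filter on low counts. Of the 44 collagen genes 41 passed this filter. The other 3 are collagens of cartilage. Counts per sample were 0 to 7 for Col2a1, 0 to 7 for Col9a1 and 2 to 15 for Col10a1.

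Collagen transcripts took 5.63%, 8.18%, 8.51% and 8.06% of all counts in the control samples. In the Z1C2Z samples they took 6.18%, 4.76%, 4.67% and 6.85%. Control-1 lay below Z1C2Z-1 and Z1C2Z-5, while the other 3 control samples lay above every Z1C2Z sample. Col1a1, Col1a2 and Col3a1 together made up 81.0% to 85.3% of collagen counts in the 8 samples. Per kb of exon, Col3a1 led with a mean of 4881 CPM per kb, followed by Col1a2 with 2891 and Col1a1 with 2134 CPM per kb. Below these came Col5a2 with 283, Col6a1 with 266, Col5a1 with 168, Col6a2 with 145 and Col4a1 with 120.2 CPM per kb.

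Control-1 stood apart from the other control samples. It was the lowest control sample for 25 of the 41 tested collagen genes and for 21 of the 28 with a log2 fold change under 0. Its summed level of 10 skeletal muscle markers was 6161 CPM, against 2970 to 4160 CPM in the other control samples, and its summed level of 8 endothelial markers was 336 CPM against 604 to 908 CPM. Z1C2Z-2 and Z1C2Z-4 were the lowest pair of Z1C2Z samples for 27 of the 41 genes. Results are therefore given with and without control-1 where it decides them. Control-1 was picked out on the collagen levels themselves, so every value without it is a description of these samples.

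Among the 41 tested collagen genes, Col12a1 and Col6a1 fell and Col11a1 rose in Z1C2Z samples at an adjusted p under 0.05. The 2 genes that fell are 4.88% of the tested collagen genes, against 3.85% of all tested genes that fell, and the 1 that rose is 2.44%, against 4.28% of all tested genes that rose, so that neither share stood far from the background. With a log2 fold change under -1 as well, 1 collagen gene was left (Col12a1), against 1.25% of all genes, and with a log2 fold change over 1 there was none by edgeR or DESeq2, against 2.15% of all genes. At an unadjusted p under 0.05, 14 collagen genes (34.1%) were lower and 4 (9.76%) higher, against 15.2% and 12.8% of all genes. A log2 fold change under 0 was found for 28 collagen genes (68.3%), against 48.9% of all genes. The median over the 41 genes was -0.36, beside 0.0086 over all tested genes.

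The count of collagen genes that fell was highest without control-1. Without it 17 collagen genes (41.5%) fell, against 5.68% of all tested genes, and 2 (4.88%) rose, against 4.29%. Of the 17 genes, 6 are fibrillar, 4 beaded, 3 of basement membrane, 2 FACIT, 1 anchoring and 1 transmembrane. Control-1 was singled out on these same values, so that this count is a description and no independent support. The same holds for the values of single genes without control-1 given below. Without Z1C2Z-5, 7 fell, against 5.62% of all tested genes. Without any single one of the other 6 samples none fell by edgeR, with 8 to 13 lower at an unadjusted p under 0.05, but 4 of these 6 fits called no gene at all in either direction, and those without control-2 and control-3 called 98 and 464 genes lower over the whole table. DESeq2 on all 8 samples called 13 of 42 collagen genes with an adjusted p lower, against 9.31% of all such genes, and 4 higher, against 7.65%.

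**Figure D1:**
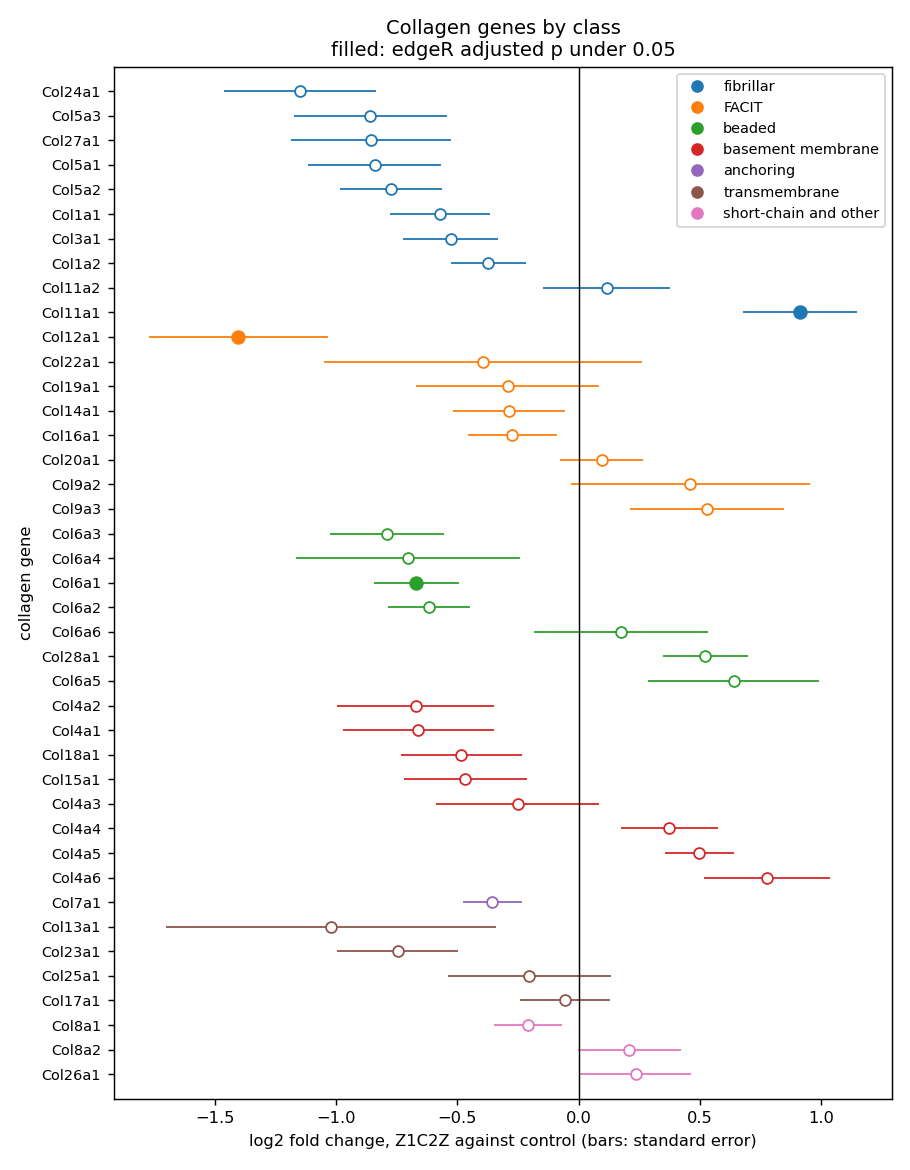
Log2 fold change (Z1C2Z against control, n = 4 each) of the 41 tested collagen genes on the horizontal axis, grouped by class, with standard errors as bars and filled points for an adjusted p under 0.05. The filled points are Col12a1 and Col6a1, left of 0, and Col11a1, right of 0.

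Groups without overlap, in which all 4 Z1C2Z samples lay on the same side of all 4 control samples, were found for 5 collagen genes. Col12a1 and Col24a1 were lower throughout (2 of 41), with 8.82% of all tested genes lower throughout. Col11a1, Col4a5 and Col28a1 were higher throughout (3 of 41), with 8.45% of all tested genes higher throughout. Neither collagen share was above that of all tested genes.

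The fibrillar collagens, which form the banded fibrils of dermis, had 8 of 10 tested genes with a log2 fold change under 0 and a class median of -0.67. None of the 8 passed the adjusted test on all 8 samples. All 8 had an unadjusted p under 0.05, against 15.2% of all tested genes lower at that p. DESeq2 called 7 of them, against 9.31% of all genes with an adjusted p. Col3a1, the type III chain of young granulation tissue and vessels, stood at 23733, 33745, 35231 and 35558 CPM in control samples and at 24442, 19429, 18024 and 27118 CPM in the 4 Z1C2Z samples. Control-1 lay among the Z1C2Z samples, and the other control samples lay above all of them. The log2 fold change of Col3a1 was -0.53 (SE 0.20, adjusted p = 0.119) and without control-1 it was -0.65 (SE 0.17, adjusted p = 0.049).

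Type I collagen is the main fibril protein of dermis and is assembled from the chains of Col1a1 and Col1a2. Col1a2 stood at 14341, 17598, 19322 and 18532 CPM in control samples and at 13907, 11833, 12196 and 15968 CPM in Z1C2Z samples. Only control-1 overlapped with the Z1C2Z range, lying below Z1C2Z-5. Its log2 fold change was -0.37 (SE 0.15, adjusted p = 0.155). Col1a1 spanned 10713 to 17503 CPM in control and 8099 to 12787 CPM in Z1C2Z samples, with a log2 fold change of -0.57 (SE 0.21, adjusted p = 0.111). Without control-1 the Col1a1 value was -0.71 (SE 0.18, adjusted p = 0.0454), while Col1a2, at -0.46 (SE 0.14, adjusted p = 0.0689), stayed above the threshold.

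Type V collagen starts type I fibrils and limits their width. Its chains Col5a1, Col5a2 and Col5a3 had log2 fold changes of -0.84, -0.77 and -0.86, with adjusted p of 0.0853, 0.0541 and 0.116. In each of the 3, control-1 lay within the Z1C2Z range and the other control samples lay above it. Without control-1 all 3 fell, Col5a2 with a log2 fold change of -0.94 (SE 0.15, adjusted p = 0.0292). Over the fits that left out 1 sample, the adjusted p of edgeR reached 0.221 for Col5a1, 0.161 for Col5a2 and 0.2875 for Col5a3.

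Col24a1, a minor fibrillar collagen, was measured at 19.6, 32.7, 35.4 and 32.4 CPM in control samples. The Z1C2Z samples stood at 17.9, 9.92, 7.41 and 19.0 CPM. The groups did not overlap, but control-1 and Z1C2Z-5 were close. The log2 fold change of Col24a1 was -1.15 (SE 0.31, adjusted p = 0.0544), and without control-1 it was -1.31 (SE 0.31, adjusted p = 0.0415). Col27a1, the other minor fibrillar collagen, had a log2 fold change of -0.85 (SE 0.33, adjusted p = 0.13).

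Col11a1 went the other way. It encodes a chain of type XI collagen, the counterpart of type V in cartilage fibrils. Col11a1 stood at 29.7, 42.3, 59.0 and 28.1 CPM in control samples and at 91.2, 75.7, 62.5 and 70.2 CPM in Z1C2Z samples. The lowest Z1C2Z sample lay just above control-3, the highest control sample. Col11a1 rose with a log2 fold change of 0.91 (SE 0.23, adjusted p = 0.0476) from a mean of 39.8 ± 14.3 to 74.9 ± 12.2 CPM (SD, n = 4). Its partner chain Col11a2 was near 1 CPM, spanning 1.03 to 1.55 CPM in control and 1.10 to 1.89 CPM in Z1C2Z samples, with a log2 fold change of 0.12 (SE 0.26, adjusted p = 0.803). Without control-1 the Col11a1 value was 0.79 (SE 0.24, adjusted p = 0.0686), and of the 8 fits that left out 1 sample only the fit without control-3 kept its adjusted p under 0.05. With a score of skeletal muscle markers as a covariate the Col11a1 value was 0.62 (adjusted p = 0.124). That fit called 0.264% of all tested genes higher, against 4.28% in the main fit. With a score of hair follicle markers the Col11a1 value was 0.21, in a fit that called only 1 of all 15147 genes.

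Cartilage markers were read beside Col11a1. Of 7 in the table, Matn1, Ucma and Chad were at or near 0 in all samples, as were the cartilage collagens Col2a1 and Col9a1 named above. The sum of the 4 tested markers spanned 50.7 to 68.4 CPM in control and 76.65 to 106.9 CPM in Z1C2Z samples, and was mostly Sox9. Matn3 and Hapln1, both low, had log2 fold changes of -0.095 (adjusted p = 0.91) and 0.42 (adjusted p = 0.615). Sox9, a transcription factor of chondrocytes that hair follicle cells also use, rose with a log2 fold change of 0.82 (SE 0.16, adjusted p = 0.0302), and Acan, the large proteoglycan of cartilage, had a log2 fold change of -0.55 (SE 0.20, adjusted p = 0.106). The stretch upstream of Col11a1 is shown because this is the gene that rose. It comes from the RefSeq promoter window on GRCm38.p6, at chr3:114030290-114030478 on the plus strand, and covers only the part of the window before the gene models. Capitals mark the letters CCAAT and GGGCGG on either strand, and no TATAAA was found there.
Col11a1 upstream: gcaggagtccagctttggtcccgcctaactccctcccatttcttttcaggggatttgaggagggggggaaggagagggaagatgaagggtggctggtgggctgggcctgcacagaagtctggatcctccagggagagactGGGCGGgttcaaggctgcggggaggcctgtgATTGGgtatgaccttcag

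The FACIT collagens lie on the surface of fibrils, and 5 of 8 tested genes had a log2 fold change under 0, with a class median of -0.28. Col12a1, which encodes type XII on type I fibrils, stood at 1051, 1869.8, 2327 and 1900.0 CPM in control samples and at 1013, 420.1, 367 and 905 CPM in Z1C2Z samples. Z1C2Z-2 and Z1C2Z-4 were far below the rest, and control-1 lay just above Z1C2Z-1. Col12a1 fell with a log2 fold change of -1.40 (SE 0.37, adjusted p = 0.0496) from a mean of 1787 ± 533 to 676 ± 329.8 CPM (SD, n = 4). Without control-1 the value was -1.59 (SE 0.36, adjusted p = 0.0396). The adjusted p passed 0.05 only narrowly and was 0.0503 with RLE size factors and 0.0501 with at least 10 counts required in every sample, and it lay between 0.0672 and 0.138 in 6 of the 8 fits that left out 1 sample.

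Col14a1, which encodes type XIV, the other abundant collagen on type I fibrils, overlapped between the groups. It stood at 458, 769, 789.9 and 525 CPM in control and 656, 422, 390.1 and 615 CPM in Z1C2Z samples. Both control-1 and control-5 lay below Z1C2Z-1 and Z1C2Z-5. Its log2 fold change was -0.29 (SE 0.23, adjusted p = 0.446), and its difference from Col12a1 was not tested. Col16a1 had a log2 fold change of -0.27 (SE 0.18, adjusted p = 0.357), and without control-1 it fell, with a log2 fold change of -0.44 (SE 0.10, adjusted p = 0.0401). The remaining tested FACIT genes were low, with means over all samples from 0.272 CPM for Col9a2 to 5.99 CPM for Col20a1, and none of the 5 tested passed the test on all samples by edgeR or DESeq2.

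**Figure D2:**
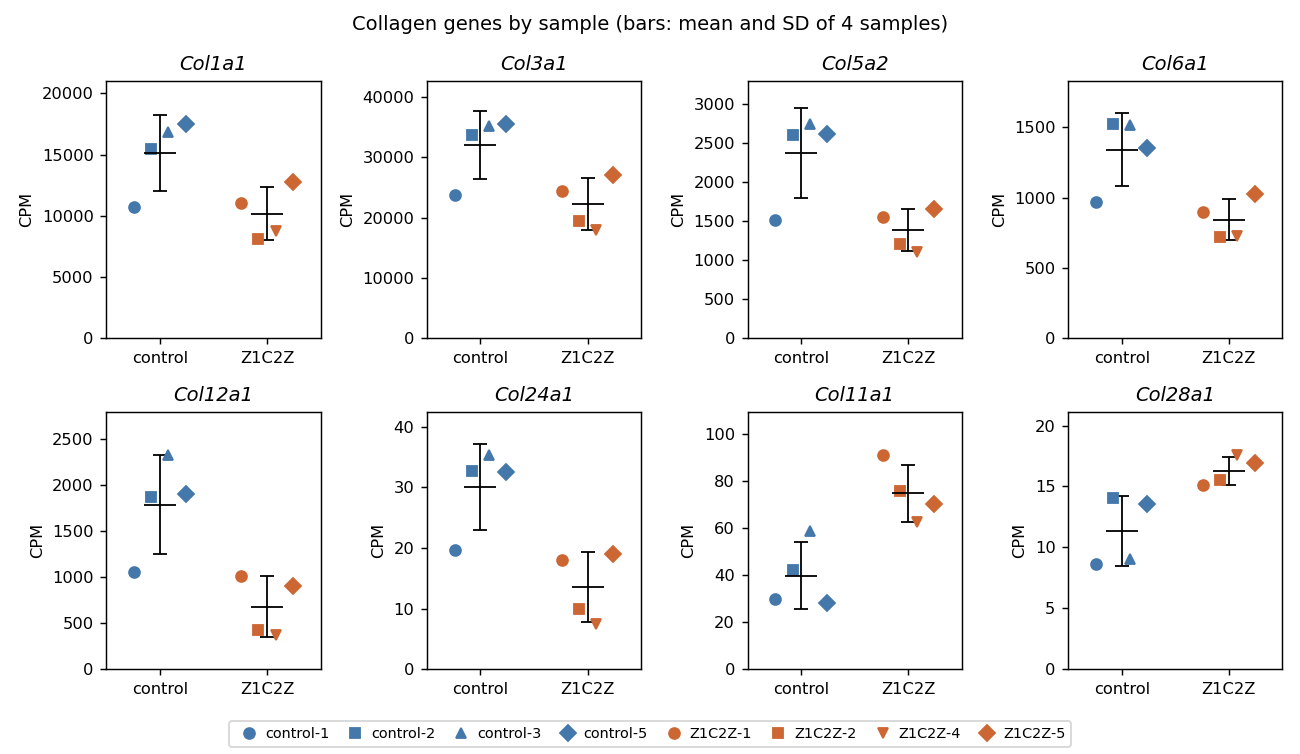
CPM per sample of 8 collagen genes in control (blue) and Z1C2Z (orange) samples, with the mean and SD of 4 samples as black bars and axes that start at 0. Control-1 (blue circle) lies near the Z1C2Z samples for Col1a1, Col3a1, Col5a2, Col6a1, Col12a1 and Col24a1, and Col11a1 and Col28a1 are higher in every Z1C2Z sample.

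Type VI collagen forms beaded microfibrils around cells from the chains of Col6a1, Col6a2 and Col6a3, and its class had a median of -0.62 with 4 of 7 genes under 0. Col6a1 stood at 969.9, 1524, 1514 and 1349.8 CPM in control samples and at 899, 721, 727 and 1023 CPM in Z1C2Z samples. Z1C2Z-5 lay above control-1, which was the only overlap. Col6a1 fell with a log2 fold change of -0.67 (SE 0.17, adjusted p = 0.0488) from a mean of 1339 ± 259 to 842 ± 146 CPM (SD, n = 4). Without control-1 the value was -0.80 (SE 0.14, adjusted p = 0.0296). The adjusted p passed 0.05 only narrowly here too. It was 0.0502 with no low-count filter and 0.0516 with at least 10 counts required in every sample, and it lay between 0.0858 and 0.15 in 6 of the 8 fits with 1 sample left out, all but those without control-1 and Z1C2Z-5.

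Col6a3 encodes the largest of these chains. It was measured at 1032, 1882, 1807 and 1496 CPM in control and at 1021, 703, 693 and 1182 CPM in Z1C2Z samples, so that control-1 lay below Z1C2Z-5 only. The log2 fold change of Col6a3 was -0.79 (SE 0.23, adjusted p = 0.069), and Col6a2 had a log2 fold change of -0.62 (SE 0.17, adjusted p = 0.054). Both fell without control-1, and DESeq2 called both lower. Col6a4, a chain related to that of Col6a3, was near 1 CPM and spanned 0.320 to 1.90 CPM in control and 0.674 to 1.07 CPM in Z1C2Z samples, and control-1 was its lowest sample.

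The other genes grouped here had values above 0. Col6a5 and Col6a6, which encode chains that can stand in for that of Col6a3, had log2 fold changes of 0.64 (SE 0.35, adjusted p = 0.268) and 0.17 (SE 0.36, adjusted p = 0.784). Col28a1 encodes type XXVIII, a relative of type VI found at peripheral nerve. It stood at 8.67, 14.1, 9.06 and 13.5 CPM in control and at 15.1, 15.5, 17.6 and 16.9 CPM in Z1C2Z samples. Every Z1C2Z sample was above every control sample, with a log2 fold change of 0.52 (SE 0.18, adjusted p = 0.0932). The summed level of 8 Schwann cell markers overlapped, at 217 to 337 CPM in control and 239.5 to 295 CPM in Z1C2Z samples, a sum made up mostly of Pmp22. Gene by gene, 7 of the 8 had a log2 fold change above 0, with a median of 0.46. At an unadjusted p under 0.05, 3 were higher, against 12.8% of all tested genes. None was called by edgeR, and 1 was called higher by DESeq2, against 7.65% of all genes with an adjusted p. The part of these markers in the Col28a1 difference was not tested.

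Col6a1 and Col6a2 are neighbours on the same strand of mouse chromosome 10, and their upstream stretches are shown because their values moved side by side. The ratio of Col6a2 to Col6a1 counts was 0.788 ± 0.023 in control and 0.823 ± 0.0369 in Z1C2Z samples (SD, n = 4), a log2 difference of 0.062 (exact permutation test, two-sided, p = 0.2, adjusted over 6 ratios p = 0.3). The stretches are RefSeq sequence of GRCm38.p6 before the gene models, at chr10:76726169-76726294 and chr10:76623631-76623880, both on the minus strand. Capitals mark GGGCGG on either strand, found in the Col6a2 stretch, and neither stretch held TATAAA or CCAAT.
Col6a1 upstream: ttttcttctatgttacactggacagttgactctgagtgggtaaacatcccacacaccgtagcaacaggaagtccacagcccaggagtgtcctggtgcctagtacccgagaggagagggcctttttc
Col6a2 upstream: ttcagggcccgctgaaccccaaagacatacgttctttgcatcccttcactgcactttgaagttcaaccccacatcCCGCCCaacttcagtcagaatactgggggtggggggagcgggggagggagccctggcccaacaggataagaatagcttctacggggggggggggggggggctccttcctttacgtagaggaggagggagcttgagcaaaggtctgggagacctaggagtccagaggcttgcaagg

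Type IV collagen is the network of basement membranes, and its 6 chains come from 3 pairs of neighbouring genes that are read in opposite directions. The pairs differed in direction. Col4a1 and Col4a2, the pair found in nearly all basement membranes and abundant around vessels, had values under 0, and Col4a5 and Col4a6, a pair known from the basement membrane of skin epithelium, had values above 0. The difference between pairs was not tested. In the class as a whole, which also holds Col15a1 and Col18a1, 5 of 8 genes were under 0 with a median of -0.36, and none passed the adjusted test by edgeR on all samples. Col4a5 and Col4a6 had an unadjusted p under 0.05, with 12.8% of all tested genes higher at that p. DESeq2 called both higher, with 7.65% of all genes with an adjusted p called higher.

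Col4a1 stood at 469, 1173, 869.7 and 1385 CPM in control samples and at 710.0, 493, 478 and 785 CPM in Z1C2Z samples. Col4a2 stood at 199.9, 588, 434 and 635 CPM in control samples and at 345, 233, 233 and 354 CPM in Z1C2Z samples. Control-1 was the lowest of all 8 samples for both genes, and the other 3 control samples were above every Z1C2Z sample. The log2 fold changes were -0.66 (SE 0.31, adjusted p = 0.203) for Col4a1 and -0.67 (SE 0.32, adjusted p = 0.212) for Col4a2, and without control-1 they were -0.90 (SE 0.22, adjusted p = 0.0456) and -0.93 (SE 0.20, adjusted p = 0.0389). The ratio of Col4a2 to Col4a1 counts was 0.471 ± 0.0358 in control and 0.474 ± 0.0173 in Z1C2Z samples (SD, n = 4), with a log2 difference of 0.012 (exact permutation test, two-sided, p = 0.857).

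The summed level of 8 endothelial markers followed a like order over the samples. It was 336, 775, 604 and 908 CPM in control and 419.5, 328, 293 and 544 CPM in Z1C2Z samples. Its 5 highest samples were those of Col4a1 in the same order, from control-5 to Z1C2Z-1, which is a description over 8 samples of the same libraries. None of the 8 markers passed the adjusted test by edgeR, while 5 were lower at an unadjusted p under 0.05 and 2 by DESeq2, against 15.2% and 9.31% over all genes. Their part in the type IV values was not tested. Col18a1, the source of endostatin, and Col15a1, a collagen of vessel and muscle basement membranes, had log2 fold changes of -0.48 (SE 0.25, adjusted p = 0.236) and -0.47 (SE 0.25, adjusted p = 0.263), and control-1 was within or below the Z1C2Z range for both.

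Col4a5 stood at 21.4, 15.9, 18.5 and 13.7 CPM in control and at 26.0, 25.0, 24.9 and 22.0 CPM in Z1C2Z samples. All Z1C2Z samples were above all control samples, and control-1 was the highest control sample, just under Z1C2Z-5. The log2 fold change was 0.50 (SE 0.14, adjusted p = 0.0603). Col4a6 spanned 2.91 to 7.25 CPM in control and 7.23 to 10.7 CPM in Z1C2Z samples, overlapping through control-1, with a log2 fold change of 0.77 (SE 0.26, adjusted p = 0.0924). Without control-1 both rose, with a log2 fold change of 0.61 (SE 0.12, adjusted p = 0.0351) for Col4a5 and 1.01 (SE 0.23, adjusted p = 0.0402) for Col4a6. Col4a3 and Col4a4, the third pair, were at 2.73 to 5.22 and 4.41 to 7.71 CPM in control samples and had log2 fold changes of -0.25 (SE 0.34, adjusted p = 0.66) and 0.37 (SE 0.20, adjusted p = 0.256).

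Col4a5 and Col4a6 start next to each other on the X chromosome, with 1274 bases between their RefSeq gene models. The stretches before each gene model are shown because both genes of the pair were higher. They are RefSeq sequence of GRCm38.p6, at chrX:141475169-141475369 on the plus strand and chrX:141474096-141474326 on the minus strand. Capitals mark CCAAT, found before Col4a5, and neither stretch held TATAAA or GGGCGG on either strand.
Col4a5 upstream: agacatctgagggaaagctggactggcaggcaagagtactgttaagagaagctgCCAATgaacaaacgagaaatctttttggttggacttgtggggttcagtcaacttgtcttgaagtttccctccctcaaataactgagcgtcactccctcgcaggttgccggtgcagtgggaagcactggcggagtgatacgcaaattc
Col4a6 upstream: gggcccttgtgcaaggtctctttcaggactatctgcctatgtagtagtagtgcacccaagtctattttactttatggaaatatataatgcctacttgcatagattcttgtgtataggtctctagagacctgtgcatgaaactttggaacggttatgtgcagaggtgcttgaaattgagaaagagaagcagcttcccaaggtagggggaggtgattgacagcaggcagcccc

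Over the full promoter windows, which include some bases after the start, 35 collagen genes had 38 windows in RefSeq. TATAAA was found on either strand in 13.2% of these and in 13.6% of all 32851 windows of the table. CCAAT was found in 34.2% against 37.4%. GGGCGG was found in 60.5% against 35.7%. These are counts of letters and were not tested, and neighbouring windows share bases where a gene has several starts.

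**Figure D3:**
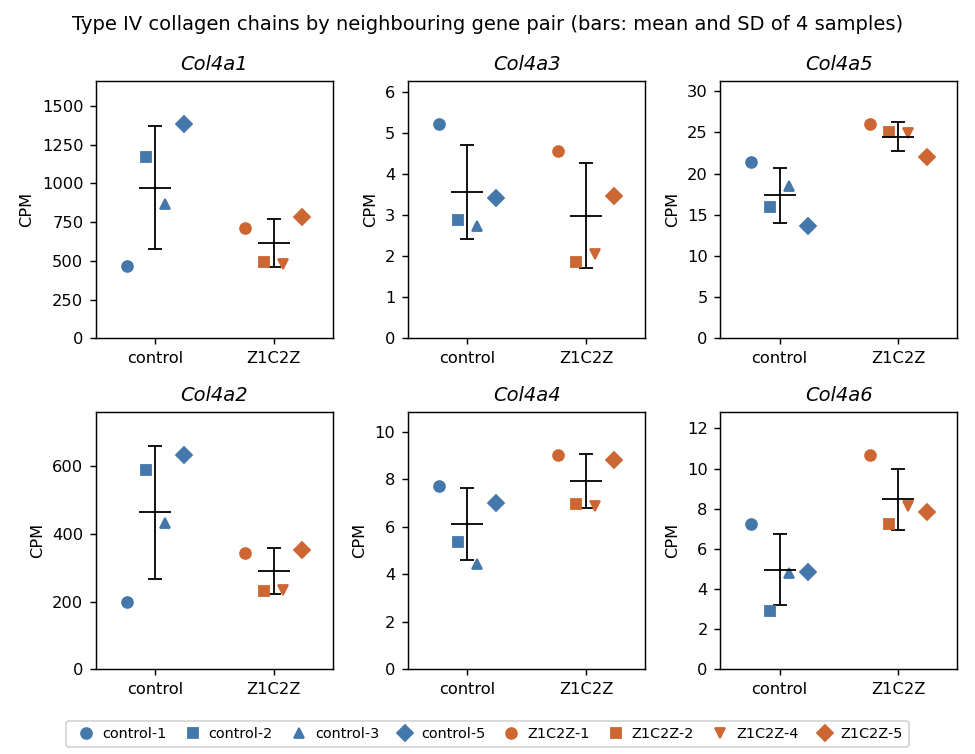
CPM per sample of the 6 type IV collagen chains, with each column holding a pair of neighbouring genes, the mean and SD of 4 samples as black bars and axes that start at 0. Col4a1 and Col4a2 share the order of their samples apart from Z1C2Z-2 and Z1C2Z-4, which lie close together and change places. Control-1 (blue circle) is lowest for both, whereas Col4a5 is higher in every Z1C2Z sample (orange).

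Col7a1 builds the anchoring fibrils under the epidermal basement membrane. It stood at 98.4, 124, 118 and 131 CPM in control and at 100.5, 78.8, 86.8 and 102 CPM in Z1C2Z samples, and control-1 again lay within the Z1C2Z range. The log2 fold change of Col7a1 was -0.36 (SE 0.12, adjusted p = 0.0961), and without control-1 it was -0.44 (SE 0.11, adjusted p = 0.047).

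The transmembrane collagens stay in the cell membrane, and all 4 had values under 0 with a median of -0.48. None passed the adjusted test by edgeR, and 1 (Col23a1) had an unadjusted p under 0.05, against 15.2% of all tested genes lower at that p. Col17a1, the BP180 protein by which basal keratinocytes hold to their basement membrane, stood at 375, 333, 269.8 and 404 CPM in control and at 368, 227, 341 and 393 CPM in Z1C2Z samples. The groups overlapped fully apart from Z1C2Z-2, the lowest sample, and control-5, the highest. The log2 fold change was -0.057 (SE 0.19, adjusted p = 0.864). Col23a1 stood at 22.7, 46.1, 32.5 and 37.4 CPM in control and at 22.3, 14.7, 17.4 and 28.4 CPM in Z1C2Z samples. Only control-1 reached into the Z1C2Z range, and the log2 fold change was -0.75 (SE 0.25, adjusted p = 0.0917). DESeq2 called Col23a1 lower, as did edgeR without control-1. Col13a1, found at the neuromuscular junction, had the widest error of the class, at -1.02 (SE 0.68, adjusted p = 0.356), with 0.633 to 8.53 CPM in control samples. This value rests on control-5, the highest of them, and without it the log2 fold change of Col13a1 was -0.0422. Col7a1 relative to Col17a1 was 0.349 ± 0.0739 in control and 0.284 ± 0.0433 in Z1C2Z samples (SD, n = 4), a log2 difference of -0.28 (exact permutation test, two-sided, p = 0.2).

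Of the short-chain and other collagens, Col8a1, a network collagen of vessels, stood at 178, 144, 131 and 175 CPM in control and 148, 107, 143 and 145 CPM in Z1C2Z samples. Z1C2Z-2 was low and the other 7 samples overlapped, with a log2 fold change of -0.21 (SE 0.14, adjusted p = 0.359). Its partner Col8a2 stood at 11.5, 6.60, 7.99 and 12.9 CPM in control and 12.5, 10.1, 12.4 and 10.04 CPM in Z1C2Z samples, again overlapping, with a log2 fold change of 0.21 (SE 0.21, adjusted p = 0.555). Col26a1 stayed under 1 CPM in every sample.

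Summed over each class, the levels of the groups overlapped in all 7 classes. For fibrillar genes the sums were 51563, 71918, 76675 and 76716 CPM in control and 52528, 41576, 41035 and 59192 CPM in Z1C2Z samples. The FACIT sums spanned 1670.0 to 3389.7 CPM in control and 953 to 1892 CPM in Z1C2Z samples, and only control-1 lay within the Z1C2Z range. In the beaded class the sums spanned 2773 to 4646 and 2089 to 3085 CPM, and in basement membrane 984 to 2691 and 1051 to 1605 CPM. The transmembrane and short-chain sums were spread through both groups.

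**Figure D4:**
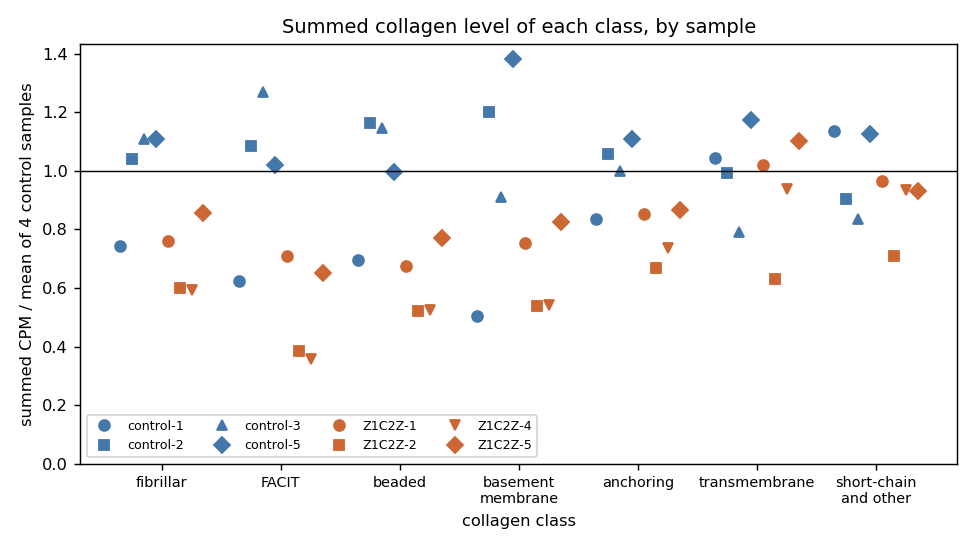
Summed CPM of each collagen class per sample, divided by the mean of the 4 control samples (line at 1), with control samples in blue and Z1C2Z samples in orange. For fibrillar, FACIT, beaded and anchoring collagens, control-2, control-3 and control-5 lie above all Z1C2Z samples and control-1 lies among them.

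Proportions between fibrillar chains bear on what kind of fibril is made, and do not depend on library size. The ratio of Col3a1 to Col1a1 counts was 2.13 ± 0.0846 in control and 2.19 ± 0.15 in Z1C2Z samples (SD, n = 4), a log2 difference of 0.041 (exact permutation test, two-sided, p = 0.514). Col1a2 to Col1a1 was 1.17 ± 0.119 against 1.34 ± 0.104 (SD, n = 4), a log2 difference of 0.19 (exact permutation test, p = 0.0857). Col5a1 to Col1a1 was 0.118 ± 0.0156 against 0.0978 ± 0.012 (SD, n = 4), a log2 difference of -0.27 (exact permutation test, p = 0.114). None of the 6 ratios tested passed, with adjusted p from 0.3 to 0.857, where the smallest p that 4 against 4 samples allow is 0.0286. A ratio chosen after its values were seen, and so left without a test, was Col12a1 counts as a percent of Col1a1 counts, at 9.81, 12.1, 13.8 and 10.9% in control and 9.14, 5.19, 4.18 and 7.08% in Z1C2Z samples. Another was Col11a1 as a percent of Col1a1, at 0.278, 0.274, 0.350 and 0.160% in control and 0.823, 0.935, 0.712 and 0.549% in Z1C2Z samples. In both the groups did not overlap. Both genes already had no overlap in CPM, so this is a description and no independent support. The same share over all genes was not computed. Col6a1 as a percent of Col1a1, also left without a test, overlapped, at 7.71 to 9.87% in control and 8 to 8.9% in Z1C2Z samples.

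The genes that modify, fold, cut, link, bind and break down collagen chains had values under 0 nearly throughout. Of 63 such genes that were found, 59 were tested. Their log2 fold change was under 0 for 57, against 48.9% of all tested genes, with a median of -0.60. By edgeR 11 (of 59) fell, against 3.85% of all tested genes, and 0 rose, against 4.28%. At an unadjusted p under 0.05, 39 were lower and 1 (Ddr1) higher, against 15.2% and 12.8% of all tested genes. DESeq2 called 35 lower and 1 higher, against 9.31% and 7.65% of all genes with an adjusted p. These shares over all genes also stand beside the counts of each list below. All 4 Z1C2Z samples were below all 4 control samples for 22 of the 59, against 8.82% of all tested genes.

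Enzymes that modify the chains had 3 of 15 genes that fell. Plod2, the lysyl hydroxylase of the telopeptides where cross-links form, stood at 152, 149, 142 and 276 CPM in control and 87.0, 45.5, 36.7 and 95.4 CPM in Z1C2Z samples, without overlap. Plod2 fell with a log2 fold change of -1.44 (SE 0.34, adjusted p = 0.0399). P4ha2, a catalytic subunit of prolyl hydroxylase, fell with a log2 fold change of -0.90 (SE 0.23, adjusted p = 0.0454), and P3h4, a partner of the lysyl hydroxylase complex, with a log2 fold change of -0.53 (SE 0.12, adjusted p = 0.0378). P4hb, the other subunit of prolyl hydroxylase, had a log2 fold change of -0.43 (SE 0.13, adjusted p = 0.0706).

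No gene of folding and secretion passed the test by edgeR among 7, with 6 lower at an unadjusted p under 0.05 and 5 called lower by DESeq2. Sparc, a collagen-binding protein, had a log2 fold change of -0.35 (SE 0.13, adjusted p = 0.113), and Serpinh1, the collagen chaperone HSP47, had a log2 fold change of -0.62 (SE 0.17, adjusted p = 0.0553). Of 7 tested genes for propeptide removal, Adamts14, a procollagen N-proteinase, fell with a log2 fold change of -0.70 (SE 0.17, adjusted p = 0.043), and Bmp1, the C-proteinase, had a log2 fold change of -0.88 (SE 0.24, adjusted p = 0.0547).

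Cross-linking by the lysyl oxidase family had the lowest median of the 7 lists, at -0.92, with 2 of 5 genes that fell. Loxl2 stood at 451, 701, 770.2 and 753 CPM in control and 367, 269.6, 275 and 418 CPM in Z1C2Z samples. The lowest control sample, control-1, was above every Z1C2Z sample. Loxl2 fell with a log2 fold change of -1.01 (SE 0.20, adjusted p = 0.0302) and Loxl1 with a log2 fold change of -0.76 (SE 0.17, adjusted p = 0.0354), while Lox, the enzyme that names the family, had a log2 fold change of -0.92 (SE 0.26, adjusted p = 0.0616).

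The proteoglycans that coat fibrils and set their spacing held 9 tested genes, of which Dcn (decorin) and Lum (lumican) fell. Lum stood at 2486, 2456, 2928 and 2229 CPM in control and 1643, 1530.4, 1450.3 and 1717 CPM in Z1C2Z samples. Here control-1 was not low, and the groups were well apart. Lum fell with a log2 fold change of -0.67 (SE 0.11, adjusted p = 0.0299) and Dcn with a log2 fold change of -0.45 (SE 0.094, adjusted p = 0.032). Of the 9 tested collagen receptors, Itgb1, the shared beta chain of the collagen integrins, fell with a log2 fold change of -0.61 (SE 0.14, adjusted p = 0.0386), and Ddr1, a receptor kinase of epithelium, had a log2 fold change of 0.35 (SE 0.10, adjusted p = 0.0676). Of the genes for collagen cleavage, 2 of 7 tested fell, Mmp14 with a log2 fold change of -0.74 (SE 0.14, adjusted p = 0.0302) and Mmp2 with a log2 fold change of -0.78 (SE 0.19, adjusted p = 0.0423), and the collagenase Mmp13 had a log2 fold change of -1.72 (SE 0.53, adjusted p = 0.0743) with 131 to 240.2 CPM in control and 17.4 to 107 CPM in Z1C2Z samples.

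Markers of the cells in skin moved with these results. In bulk tissue fewer cells of a type and less RNA per cell cannot be told apart. The summed level of 8 fibroblast markers was 4596, 5713, 5715 and 6061 CPM in control and 3540.2, 3368, 3409 and 4059.7 CPM in Z1C2Z samples, without overlap. Of the 8, 3 fell (Mfap5, Thy1 and Vim), against 3.85% of all tested genes. Control-1 was the lowest control sample here too. The sum of 6 myofibroblast markers was 8127 to 14834 CPM in control and 5203 to 6997 CPM in Z1C2Z samples, also without overlap. Of these Acta2, Cnn1 and Tnc fell, Tnc with a log2 fold change of -2.16 (SE 0.40, adjusted p = 0.03).

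The hair follicle list, made of keratins and other genes of the growing hair, moved the other way. Its sum was 717, 2393, 3689 and 632 CPM in control and 9102, 15216, 14618 and 4544 CPM in Z1C2Z samples. In this list 9 of 10 genes rose, against 4.28% of all tested genes, with a median log2 fold change of 2.46. Z1C2Z-2 and Z1C2Z-4, the lowest pair for most collagen genes, were the highest pair here. The epidermis sums overlapped, at 11854 to 14329 CPM in control and 13129.8 to 18537 CPM in Z1C2Z samples. The sums of adipocyte, macrophage, neutrophil and skeletal muscle markers overlapped as well, but most of their genes had log2 fold changes under 0. Of the neutrophil markers 7 of 7 tested were under 0, with a median of -1.19, 5 of them at an unadjusted p under 0.05, none called by edgeR and 2 called lower by DESeq2. Over all genes 48.9% were under 0, 15.2% were lower at that unadjusted p, and DESeq2 called 9.31% lower. Of the skeletal muscle markers 10 of 10 were under 0, with a median of -0.50, and Acta1, the actin of skeletal muscle fibres, fell with a log2 fold change of -0.86 (SE 0.17, adjusted p = 0.0302). The muscle sums spanned 2969.5 to 6161 CPM in control and 2709.7 to 2970.0 CPM in Z1C2Z samples. All 8 macrophage markers and 6 of 8 adipocyte markers were under 0, with medians of -0.40 and -0.29. With the mean level of the hair follicle markers as a covariate no collagen gene was called by edgeR, with 0 lower and 4 higher at an unadjusted p under 0.05, but the same fit called only 1 lower and 0 higher of all 15147 genes, and the level itself did not overlap between groups, so that it and the treatment cannot be told apart. The part of any of these lists in the collagen values was not tested further.

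**Figure D5:**
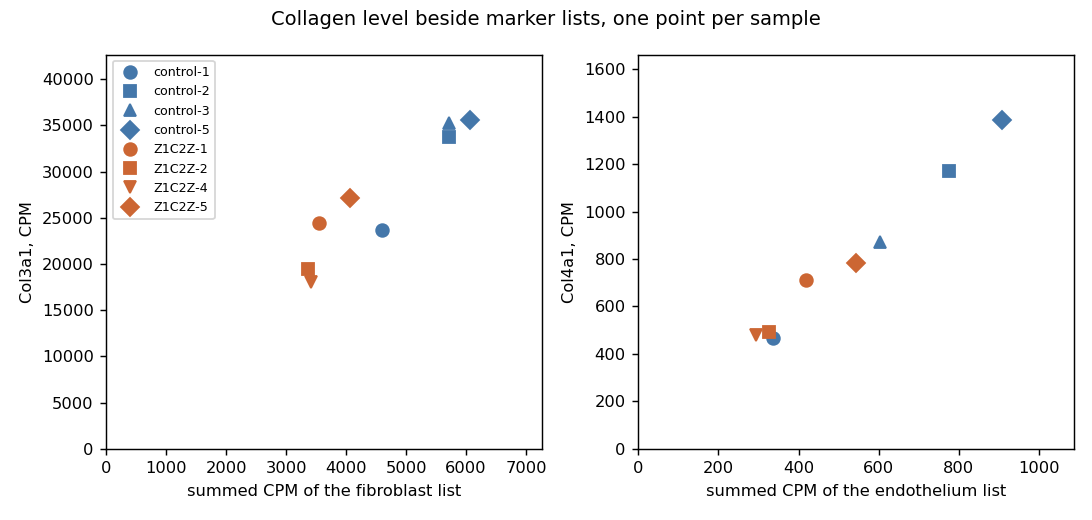
Col3a1 against the summed fibroblast markers (left) and Col4a1 against the summed endothelial markers (right), both axes in CPM from 0, with 1 point per sample and control samples in blue. Control-1 (blue circle) lies near the Z1C2Z samples (orange) for both collagen genes and for the endothelial sum, while its fibroblast sum of 4596 CPM is above that of every Z1C2Z sample.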

How the data were processed

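Total RNA of 8 mouse wound skin samples (4 control, 4 Z1C2Z) was depleted of ribosomal RNA and sequenced as random-primed cDNA with dUTP in the second strand, per the labels. What the authors deposited are raw, unnormalized read counts of 18540 genes. The aligner, counting program, genome build and strand setting are not given in the sources used here, so that reads of overlapping genes, such as Col4a1 and Col4a2, whose gene models share 85 bases, or Col4a3 and Col4a4, which share 114 bases, could be split either way. Groups came from the sample titles. Nothing states that the samples are separate mice, so p-values measure only the spread between these samples, which may be technical. The smallest chi-square per degree of freedom over pairs of libraries was 21.7, and each library was counted as 1 replicate.

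With edgeR 4.0.16 in R 4.3.3, filterByExpr kept 15147 genes, TMM set library sizes, and glmQLFit and glmQLFTest compared the groups, with Benjamini-Hochberg adjustment over all tested genes and a threshold of 0.05. CPM used TMM sizes, log2 CPM a prior count of 2, and CPM per kb the merged exons of GENCODE M21 basic. Count ratios were tested by exact two-sided permutation over 70 arrangements. The alternatives were DESeq2 1.42.0, RLE size factors, omitting the low-count filter, requiring at least 10 counts in each sample, a block for the sample number, covariates for a skeletal muscle or hair follicle score, 1 count added to both genes of a ratio, and each sample left out. On simulated counts of 15147 genes, the edgeR steps found 187 (93.5%) of 200 genes set to a log2 fold change of 2 in size, and called 12 unchanged genes. The tested collagen genes lay between -1.40 and 0.91, so this share does not tell how often changes of their size are found.

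The members, classes and gene lists were chosen with earlier results of these data known. Values in every sample are given for collagen genes with an adjusted p under 0.05, those without overlap and the 2 of each class with the highest mean CPM. Of the assembly lists, genes with an adjusted p under 0.05 and up to 3 others of the highest mean CPM could be named; Mmp13 and Ddr1 were named after their values were seen. Promoter sequence came from RefSeq (GRCm38.p6), matched by symbol. Ctage5 and Snorc, members of the lists, were not found in the table by symbol.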

Additional observations from a re-analysis of the deposited data

Results flagged for a closer look

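For each tested collagen gene and count ratio in each group of 4 samples, the gap of the highest or lowest log2 value to its neighbour was set against the range of the group (Dixon's ratio, above 0.829). Chance gives about 1 such sample in 20 groups, and 6 of 94 groups had one. In 5 of the 6 it was control-1, which lay far below the other 3 control samples, at 23733 CPM for Col3a1, 1052.8 CPM for Col5a1, 1510.5 CPM for Col5a2, 19.6 CPM for Col24a1 and 0.320 CPM for Col6a4. The sixth was Z1C2Z-2, the lowest Z1C2Z sample for Col8a1, at 107 CPM against 143 to 148 CPM in the others.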

How the results depend on the processing

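Counts of called collagen genes moved with nearly every choice, and many adjusted p lay near 0.05. In place of 2 genes lower, 13 were called by DESeq2, 1 with RLE size factors, 1 with no low-count filter, 0 with at least 10 counts in every sample (14 at an unadjusted p under 0.05), 0 with a hair follicle score and 0 to 17 with each sample left out in turn (17 without control-1, 7 without Z1C2Z-5, 0 without any other). With a skeletal muscle score 3 were called lower (Col5a2, Col6a1 and Col6a2), against 0.852% of all tested genes, and 21 were lower at an unadjusted p under 0.05. In place of 1 higher, 4 were called by DESeq2, 0 with a skeletal muscle score, 0 with a hair follicle score and 0 to 2 with each sample left out. The fit with the skeletal muscle score called 0.264% of all tested genes higher, against 4.28% in the main fit. With a log2 fold change past 1 as well, in place of 1 lower there were 2 by DESeq2, 0 with RLE size factors, 0 with at least 10 counts, 0 with a hair follicle score and 0 to 5 with each sample left out (5 without control-1, 2 without Z1C2Z-5), and in place of 0 higher there were 0 to 1 with each sample left out. Of the assembly genes, in place of 11 lower there were 35 by DESeq2, 5 with a skeletal muscle score, 0 with a hair follicle score and 0 to 25 with each sample left out (25 without control-1, 20 without Z1C2Z-5, 5 without control-3, 0 without any other), and in place of 0 higher there was 1 by DESeq2. Of all tested genes the main fit called 3.85% lower. This share was 0.852% with the skeletal muscle score and 0.0066% with the hair follicle score. It was 5.68% without control-1, 5.62% without Z1C2Z-5, 3.04% without control-3 and 0.641% without control-2. DESeq2 called 9.31% of genes with an adjusted p lower. Over all tested genes the calls also went to 0 in the fits without control-5 and in those without Z1C2Z-4, Z1C2Z-2 or Z1C2Z-1. Collagen genes without overlap numbered 4 to 5 higher and 2 to 19 lower with each sample left out. The 19 were found without control-1. Of all 15147 tested genes, 2362 had every Z1C2Z sample below control-2, control-3 and control-5. Such counts over all genes were not made for the other samples left out. The sample numbers 1, 2 and 5 occur in both groups. Deviations from the group mean had correlations of -0.10, -0.062 and 0.32 between same-numbered samples. Differently numbered samples spanned -0.409 to 0.387. So few pairs cannot settle whether the numbers pair the samples, and the main test took them as unpaired. With the number as a replicate block 0 collagen genes were lower (3 at an unadjusted p under 0.05) and 1 higher, with a log2 fold change past 1 there were 0 lower and 1 higher, and 3 assembly genes were lower. This fit called 1.67% of all tested genes lower and 1.99% higher. Over all genes 2546 had an unadjusted p under 0.05 in it, against 4248 in the main fit. The sign of some genes turned. With the skeletal muscle score the log2 fold changes were -0.0224 for Col11a2, 0.0851 for Col17a1, 0.29 for Col19a1, 0.32 for Col22a1, 0.17 for Col4a3, -0.27 for Col6a6 and -0.19 for Col9a2. With the hair follicle score they were -0.35 for Col11a2, 2.41 for Col13a1, 0.15 for Col15a1, 0.67 for Col17a1, 0.56 for Col19a1, 0.57 for Col22a1, 0.83 for Col4a3, -0.70 for Col6a6, 0.31 for Col8a1, -0.50 for Col9a2 and -0.0865 for Col9a3. Each of these genes had an edgeR adjusted p of 0.9999 in that fit, which called only 1 of 15147 genes. The hair follicle score and the treatment cannot be told apart, so these signs are not a change of direction. With each sample left out the log2 fold changes spanned -0.0451 to 0.23 for Col11a2, -0.16 to 0.0903 for Col17a1, -0.55 to 0.0118 for Col19a1, -0.87 to 0.16 for Col22a1 and -0.0599 to 0.48 for Col6a6. None of the 6 ratios passed the threshold with 1 count added to both genes, and with a sample left out no test of them was run. Over these alternatives their log2 differences lay between -0.41 and 0.26, and the sign turned for Col3a1 to Col1a1 (-0.0028 to 0.0722) and Col4a2 to Col4a1 (-0.0349 to 0.0434). The cause of these changes was not tested. Depth did not limit the abundant collagens, while genes under 1 CPM rest on few counts.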
